A study of Mus musculus with 16 samples.

Results

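The 51 genes described here drive DNA replication and mitosis, and they were followed in whole mouse lung RNA from 4 groups in 2 batches. They were taken from a list of mouse symbols, 15 replication genes and 36 mitotic genes, matched to the Ensembl identifiers of the deposited table, and all 51 of 51 were found among its 53647 genes. The list was drawn up from what the genes are known to do and with earlier results of these data known, not from a threshold on these values. All 51 passed the filter of at least 1 TPM in at least 4 of 16 libraries, and 42 of them reached 1 TPM in every library.

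The series concerns ATP12A, a catalytic subunit of a proton pump found outside the stomach, in lung fibrosis. The groups were control lungs, lungs of mice given bleomycin, lungs given bleomycin and an adenovirus carrying GFP (Ad-GFP), and lungs given bleomycin with the ATP12A adenovirus, Ad-ATP12A in the labels. The drug breaks DNA and injures the lung, and it is a standard way to produce lung fibrosis in mice. Each group had 4 libraries, 2 in batch 1 and 2 in batch 2, and the 3 groups that received bleomycin are called exposed below. Strain, sex, age, bleomycin dose, collection time, viral dose and the species of the ATP12A insert are not given in the sources used here, nor what the control lungs received. Whether replicates came from separate animals is likewise not stated, and p-values therefore measure only the spread between libraries, which may be technical. A library is named by batch and replicate (b1r2 is batch 1, replicate 2), and lists of 4 values run in the order b1r1, b1r2, b2r1, b2r2.

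A cell prepares to copy its DNA in G1, when cyclin E with Cdk2 helps to release E2F transcription factors. These factors switch on genes for origin licensing, helicase subunits, nucleotide supply and the replication clamp. Genes for G2 and mitosis come later, through the MuvB complex with B-Myb and then Foxm1, often at promoter elements called CHR and CCAAT boxes. In a resting adult lung few cells divide, and after injury epithelial, endothelial, mesenchymal and immune cells can all enter the cycle, so bulk RNA does not show which cells carry these transcripts.

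Because replication and mitotic genes are known for different promoter elements, 4 promoters are printed: for each list the pair with the smallest p in bleomycin against control among those whose window holds the motif searched. Each is the RefSeq window of 300 bases on GRCm38.p6, from 250 bases before the annotated start to 50 after it, written 5′ to 3′ along the gene. Of the 51 genes, 43 matched a window by symbol (13 replication and 30 mitotic), with 47 windows in all. The last 50 bases shared a run of 20 bases with a transcript of the same gene in 42 of the 47 windows when read along the gene, and in 0 when read on the opposite strand. In the first pair below, capitals mark E2F motifs, TTTCCCGC, TTTGGCGC, TTTGCCGC or TTTCGCGC on either strand. In the second pair, capitals mark CHR motifs (TTTGAA or TTCGAA) and CCAAT boxes on either strand.

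Mcm3: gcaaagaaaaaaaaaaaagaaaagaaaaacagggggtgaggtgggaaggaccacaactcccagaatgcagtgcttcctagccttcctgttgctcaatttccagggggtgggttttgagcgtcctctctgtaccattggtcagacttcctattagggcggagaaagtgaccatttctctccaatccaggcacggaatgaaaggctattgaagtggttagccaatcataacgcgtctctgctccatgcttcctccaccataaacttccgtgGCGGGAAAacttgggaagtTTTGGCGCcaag
Cdc6: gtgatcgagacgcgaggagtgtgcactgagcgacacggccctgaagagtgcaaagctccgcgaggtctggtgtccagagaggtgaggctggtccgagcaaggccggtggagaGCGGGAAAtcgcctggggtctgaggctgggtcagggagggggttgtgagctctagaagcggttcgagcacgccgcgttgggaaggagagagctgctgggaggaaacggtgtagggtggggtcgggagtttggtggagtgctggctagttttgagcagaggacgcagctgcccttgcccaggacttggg
Psrc1: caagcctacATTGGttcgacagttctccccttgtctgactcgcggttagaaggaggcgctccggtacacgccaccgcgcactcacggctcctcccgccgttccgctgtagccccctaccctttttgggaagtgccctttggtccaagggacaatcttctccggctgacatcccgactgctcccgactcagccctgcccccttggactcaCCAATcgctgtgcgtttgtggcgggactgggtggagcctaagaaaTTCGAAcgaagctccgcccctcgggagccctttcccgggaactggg
Cdk1: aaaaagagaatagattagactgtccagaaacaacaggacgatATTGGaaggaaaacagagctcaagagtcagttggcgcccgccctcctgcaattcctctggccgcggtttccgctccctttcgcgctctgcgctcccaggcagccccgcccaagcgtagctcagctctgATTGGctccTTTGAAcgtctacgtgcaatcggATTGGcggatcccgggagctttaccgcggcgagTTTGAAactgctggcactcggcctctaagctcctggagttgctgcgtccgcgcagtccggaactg

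Mcm3 encodes a subunit of the replicative helicase, and its window (chr1:20820263-20820562, minus strand) held 2 E2F motifs, both just after the start, at bases 19 to 26 and 38 to 45. Cdc6 encodes the factor that loads that helicase onto origins, and its window (chr11:98907901-98908200, plus strand) held 1, from base -138 to -131. Psrc1 encodes a spindle protein, and its window (chr3:108383554-108383853, plus strand) held a CHR at bases 4 to 9 and a CCAAT box at -41 to -37, with a second box on the opposite strand at -241 to -237. Cdk1 encodes the mitotic kinase, and its window (chr10:69352863-69353162, minus strand) held CHR motifs at -71 to -66 and -15 to -10 and 3 CCAAT boxes. The Cdk1 window also held 1 E2F motif, which is not capitalised. None of the capitalised motifs overlapped another. Positions count from the base at the annotated start as 0.

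The E2F letters were found in 6 of the 14 replication windows (42.9%), in 2 of the 33 mitotic windows (6.06%) and in 2.26% of all 32851 windows in the table. A CHR was found in 3 of 14 replication windows (21.4%), in 25 of 33 mitotic windows (75.8%) and in 19.2% of all windows. A CHR together with a CCAAT box was found in 23 of 33 mitotic windows (69.7%) and in 7.52% of all windows. The sizes of the differences between bleomycin and control lungs, described below, overlapped between genes with and without these letters. The median log2 difference was 1.83 for the 22 mitotic genes with a CHR and 1.68 for the 8 without, and 0.98 for the 6 replication genes with an E2F motif and 1.26 for the 7 without. A match is a string of letters in this window and was not tested as a binding site.

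Libraries were compared before the genes. Each library expressed between 15537 and 16336 genes at 1 TPM or more, and the top 10 genes of a library made up 12% to 25.8% of its TPM. The alveolar type 2 cell markers summed to between 6990 and 37680 TPM in the 16 libraries, so lung epithelium was present in all of them. Atp12a itself was at 5.13, 2.96, 29.02 and 25.70 TPM in the Ad-ATP12A libraries and at no more than 0.20 TPM elsewhere. Scgb1a1, the club cell secretory protein, was under 1000 TPM in control b2r1 (441), bleomycin b2r2 (128) and Ad-GFP b1r1 (295), and counts without these 3 libraries are given with the results. Xist, which is expressed from the inactive X chromosome, was high in control b1r1, bleomycin b2r1, Ad-GFP b1r1 and Ad-ATP12A b1r1, b1r2 and b2r2, unevenly over the groups.

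Nearly all of the 51 genes were higher in bleomycin lungs than in control lungs, and the mitotic genes differed more than the replication genes. Of the 36 mitotic genes 36 rose, and of the 15 replication genes 14 rose, at an adjusted p below 0.05 (limma on log2(TPM + 1), two-sided, Benjamini-Hochberg over 17003 genes). None fell, and Mcm7 was the exception that did not pass. Among all genes tested, 13.2% were called higher and 5.61% lower. The median log2 difference was 1.81 for the mitotic genes, 1.09 for the replication genes and 0.05 for all genes tested. In TPM the median ratio of group means was 4.86 for the mitotic genes, from 1.83 for Nek2 to 10.6 for Psrc1, and 2.31 for the replication genes, from 1.17 for Mcm7 to 4.94 for Rrm2. A log2(TPM + 1) difference understates the change of genes with few TPM, and more RNA per cell cannot be told apart from more cells of a kind in bulk tissue.

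Averaged over the 36 mitotic genes, log2(TPM + 1) was 2.05, 2.04, 2.04 and 1.69 in the control libraries and 3.80, 3.84, 3.25 and 4.18 in the bleomycin libraries. The Ad-GFP libraries were at 3.32, 3.89, 3.42 and 3.43, and the Ad-ATP12A libraries at 3.80, 3.68, 3.96 and 3.90. All 12 exposed libraries thus lay above all 4 control libraries, and within the exposed groups the values overlapped. For the replication genes the same average was 2.93, 3.0, 3.18 and 2.91 in control and 4.06, 4.14, 3.65 and 4.33 in bleomycin lungs. It was 3.63, 4.19, 3.84 and 3.70 in Ad-GFP and 3.95, 3.94, 4.09 and 4.33 in Ad-ATP12A lungs, again with all exposed libraries above all control libraries. The distance between the 2 averages, mitotic minus replication, was between -1.22 and -0.88 in control libraries and between -0.43 and -0.13 in exposed ones.

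**Figure D1:**
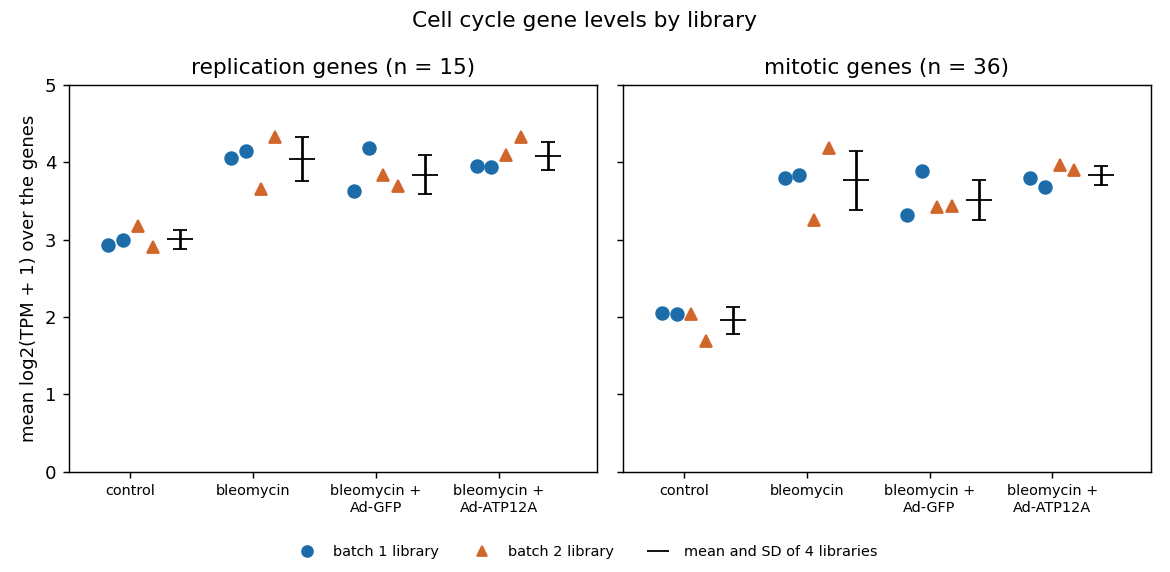
Mean log2(TPM + 1) over the 15 replication genes (left) and the 36 mitotic genes (right), 1 point per library, by group, with circles for batch 1 and triangles for batch 2; the line and bar beside each group are the mean and SD of its 4 libraries. Control libraries lie between 1.69 and 2.05 for the mitotic genes, below all 12 exposed libraries at 3.25 to 4.18, and the 3 exposed groups overlap.

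In 48 of the 51 genes the 4 bleomycin libraries lay above all 4 control libraries without overlap, against 16.5% of all genes tested (6.92% lay below). The exceptions were Mcm4, Mcm7 and Bub1b. Within batches the median log2 difference of the 51 genes was 1.60 in batch 1 and 1.63 in batch 2, and all 51 were positive in both. A test of whether the difference changed with batch called 0 of the 51 genes, against 0.0647% of all genes tested. The same test called 0 of the 51 in Ad-GFP against control, where 2.36% of all genes passed, and 0 in Ad-ATP12A against control, where 2.8% passed. At an adjusted p below 0.05, 47 of the 51 were called in batch 1 alone but 2 in batch 2 alone, where 29 of the 17003 genes passed. For batch 1 alone the number of all genes passing is not given, so the contrast between batches has no baseline.

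The licensing and helicase genes open the cycle, since MCM2 to MCM7 form the ring that is loaded on origins in G1 and unwinds DNA in S phase. Of the 6 helicase genes 5 rose, and their differences were uneven. Mcm3 measured 11.29, 12.68, 16.64 and 13.49 TPM in control and 39.48, 46.43, 23.05 and 32.12 TPM in bleomycin lungs. Ad-GFP libraries measured 31.49, 47.24, 23.40 and 21.44 TPM and Ad-ATP12A libraries 36.45, 35.07, 31.28 and 32.50 TPM. All exposed libraries were above all control libraries, with the largest values in batch 1, and the log2 difference came to 1.29 ± 0.204 (SE, n = 4 and 4, adjusted p 0.00132). Mcm6, another subunit, had levels of 15.13, 17.18, 20.94 and 14.44 TPM in control and 29.44, 33.51, 24.66 and 39.66 TPM in bleomycin lungs. Ad-GFP values were 23.34, 31.97, 28.52 and 27.00 TPM and Ad-ATP12A values 31.16, 30.02, 34.17 and 42.29 TPM. The groups were again apart, with bleomycin b2r2 and Ad-ATP12A b2r2 highest, and the fitted log2 difference was 0.87 ± 0.157 (SE, n = 4 and 4, adjusted p 0.00292).

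Mcm7, from the same helicase, behaved differently. It was at 24.41, 21.21, 28.55 and 22.75 TPM in control and at 25.71, 25.55, 27.13 and 35.31 TPM in bleomycin lungs. Values of 23.59, 27.44, 31.10 and 28.33 TPM were found in Ad-GFP and 26.86, 27.23, 29.00 and 36.08 TPM in Ad-ATP12A lungs. It was already abundant in control lungs, where b2r1 exceeded 3 of the bleomycin libraries, so the groups overlapped. Its log2 difference was 0.22 ± 0.107 (SE, n = 4 and 4, adjusted p 0.17). Against control, Ad-GFP lungs differed by 0.18 (adjusted p 0.267) and Ad-ATP12A lungs by 0.29 (adjusted p 0.0683), so Mcm7 did not pass in any of the 3 comparisons. Without the 3 libraries low in Scgb1a1 it passed in Ad-ATP12A against control (0.34, adjusted p 0.0484). Of the other subunits, Mcm5 differed by 1.09 and Mcm2 by 0.87. Mcm4 rose by 0.48 with overlapping ranges (adjusted p 0.0403). That call was lost without any 1 of bleomycin b1r1, b1r2 and b2r2 or control b1r1, b1r2 and b2r2 (adjusted p 0.0826 to 0.121). It was also lost with quantile normalization (adjusted p 0.0541) or median-ratio scaling (0.0582). The same held without the batch term (0.0596), without the filter (0.0757) and in the 8 libraries compared (0.0715).

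Cdc6, which brings the helicase to origins, measured 0.87, 0.73, 1.49 and 1.18 TPM in control and 3.37, 4.90, 2.63 and 4.69 TPM in bleomycin lungs. Ad-GFP libraries measured 2.54, 4.48, 2.26 and 2.03 TPM and Ad-ATP12A libraries 3.59, 2.65, 3.24 and 4.23 TPM. It was near 1 TPM in control lungs and above 2 TPM in every exposed library, and the log2 difference came to 1.23 ± 0.216 (SE, n = 4 and 4, adjusted p 0.00254). Its partner Cdt1 rose by 0.78 (adjusted p 0.0165). That call was lost without bleomycin b1r1 (adjusted p 0.0555), without bleomycin b2r2 (0.0581) and without the 3 libraries low in Scgb1a1 (0.0665).

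Pcna, the sliding clamp that holds polymerases on DNA, was the most abundant of the 51 genes. It had levels of 67.34, 71.04, 81.96 and 71.44 TPM in control and 129.55, 135.86, 95.63 and 140.36 TPM in bleomycin lungs. Ad-GFP values were 101.89, 134.05, 102.41 and 89.63 TPM and Ad-ATP12A values 110.12, 121.24, 99.63 and 131.82 TPM. The groups did not overlap, though Ad-GFP b2r2 and bleomycin b2r1 came near the highest control, and the fitted log2 difference was 0.76 ± 0.141 (SE, n = 4 and 4, adjusted p 0.00323). In TPM its ratio was 1.72, well below that of the nucleotide supply genes. Rrm2, the regulated subunit of ribonucleotide reductase, was at 4.51, 5.67, 6.01 and 3.24 TPM in control and at 26.13, 27.20, 13.29 and 29.35 TPM in bleomycin lungs. Values of 16.71, 28.43, 16.25 and 16.30 TPM were found in Ad-GFP and 24.70, 21.78, 25.36 and 33.19 TPM in Ad-ATP12A lungs. Every exposed library exceeded 13 TPM and no control library exceeded 6.01 TPM, and its log2 difference was 2.06 ± 0.247 (SE, n = 4 and 4, adjusted p 0.00023). Tyms, which makes thymidylate, rose by 1.45 (adjusted p 0.00077).

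The E-type cyclins, which activate Cdk2 at the start of S phase, rose together. Ccne1 measured 1.13, 1.94, 1.60 and 1.76 TPM in control and 5.74, 5.88, 3.26 and 6.42 TPM in bleomycin lungs. Ad-GFP libraries measured 3.59, 5.99, 4.58 and 5.39 TPM and Ad-ATP12A libraries 4.32, 4.29, 6.02 and 8.36 TPM. Its highest value was in Ad-ATP12A b2r2 and its groups were apart, and the log2 difference came to 1.26 ± 0.218 (SE, n = 4 and 4, adjusted p 0.00234). Ccne2 had levels of 3.12, 2.71, 2.68 and 2.76 TPM in control and 6.72, 8.72, 4.69 and 11.81 TPM in bleomycin lungs. Ad-GFP values were 4.94, 7.79, 7.10 and 4.64 TPM and Ad-ATP12A values 6.12, 6.65, 7.25 and 7.24 TPM. Bleomycin b2r2 was highest and the control values were close together, and the fitted log2 difference was 1.17 ± 0.214 (SE, n = 4 and 4, adjusted p 0.003). E2f1, the transcription factor of S phase genes, rose by 0.69 (adjusted p 0.0115).

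Neil3, a DNA glycosylase of replicating cells that also unhooks crosslinks between strands, had the smallest p among the replication genes. It was at 1.03, 1.02, 0.95 and 1.19 TPM in control and at 4.48, 4.29, 3.75 and 5.27 TPM in bleomycin lungs. Values of 3.46, 5.42, 3.39 and 3.29 TPM were found in Ad-GFP and 3.88, 4.05, 4.40 and 3.99 TPM in Ad-ATP12A lungs. The exposed libraries lay in a narrow band between 3.29 and 5.42 TPM with controls near 1 TPM, and its log2 difference was 1.41 ± 0.14 (SE, n = 4 and 4, adjusted p 0.000105).

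**Figure D2:**
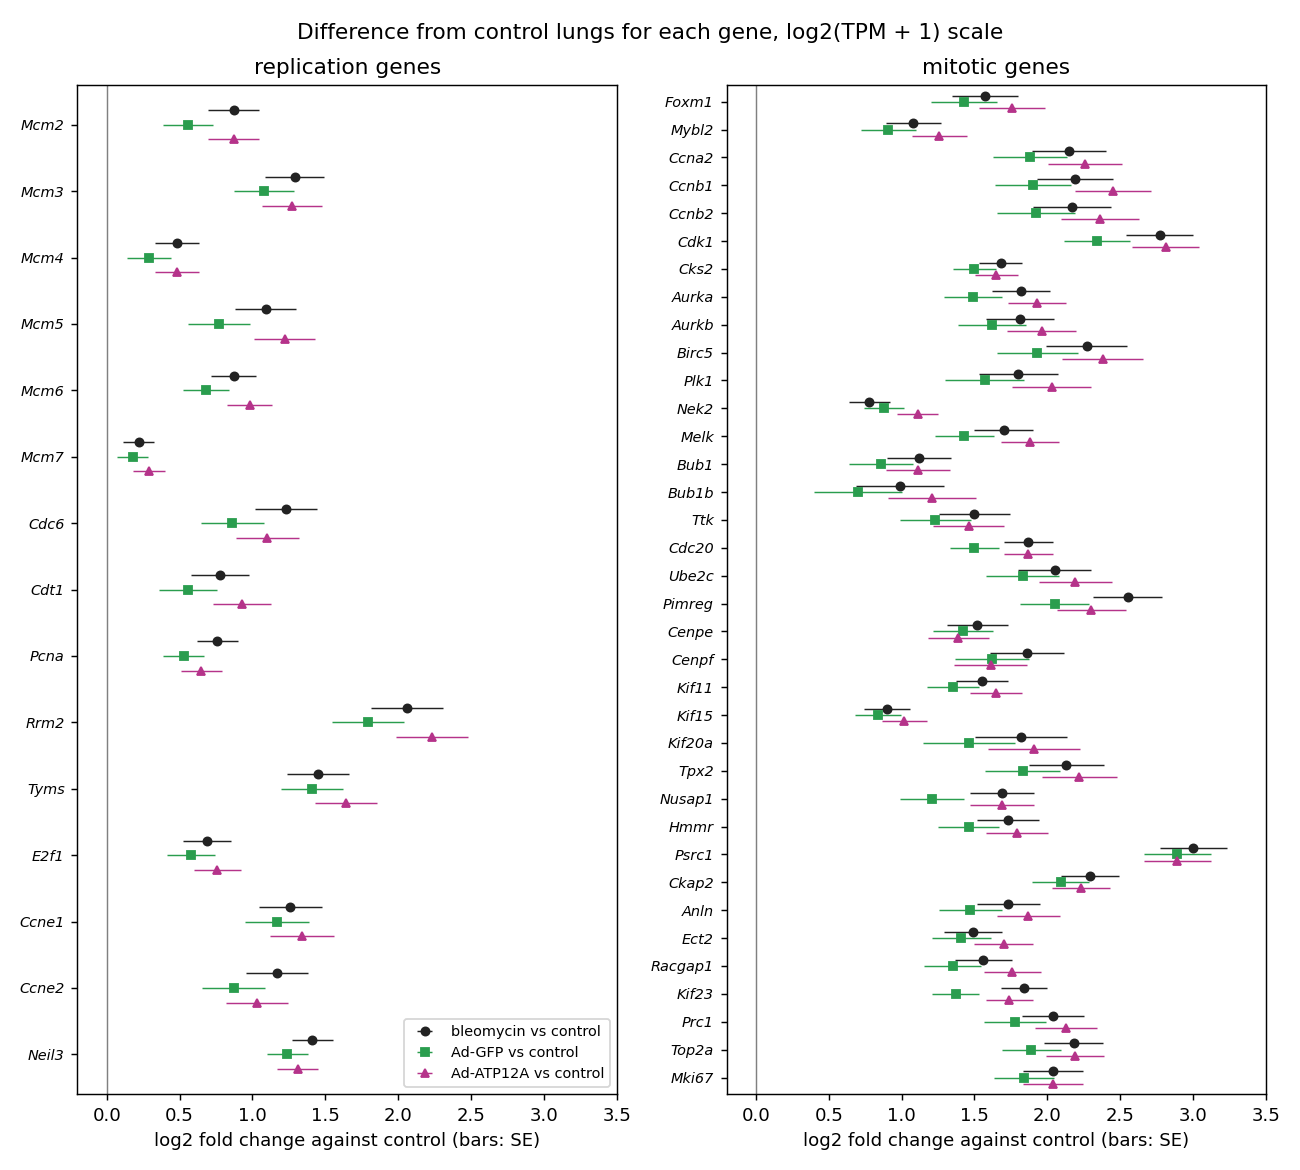
Log2 fold change against control on the log2(TPM + 1) scale for each of the 51 genes, replication genes left and mitotic genes right, in bleomycin (circles), Ad-GFP (squares) and Ad-ATP12A (triangles) lungs; bars are standard errors, and the 3 comparisons share the same 4 control libraries. Psrc1 lies farthest right in bleomycin lungs at 3.0 and Mcm7 nearest to 0 at 0.22.

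Both transcription factors of the mitotic set rose. Foxm1, which activates G2 and mitotic genes, measured 2.98, 2.67, 4.16 and 1.62 TPM in control and 9.29, 8.89, 8.67 and 14.49 TPM in bleomycin lungs. Ad-GFP libraries measured 6.43, 11.50, 8.91 and 10.20 TPM and Ad-ATP12A libraries 8.42, 10.79, 13.28 and 15.46 TPM. Control b2r2 was lowest and Ad-ATP12A b2r2 highest, with no overlap between control and exposed libraries, and the log2 difference came to 1.57 ± 0.227 (SE, n = 4 and 4, adjusted p 0.000736). Mybl2 (B-Myb), which acts with the MuvB complex, rose by 1.08 (adjusted p 0.00256).

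The cyclins and their kinase, which start mitosis, all rose. Cdk1 had levels of 7.55, 6.63, 6.14 and 3.12 TPM in control and 46.56, 51.81, 31.77 and 49.12 TPM in bleomycin lungs. Ad-GFP values were 29.82, 50.33, 28.39 and 26.16 TPM and Ad-ATP12A values 45.17, 36.55, 47.61 and 54.05 TPM. No exposed library was below 26.16 TPM and no control library above 7.55 TPM, and the fitted log2 difference was 2.77 ± 0.228 (SE, n = 4 and 4, adjusted p 4.58e-05). Its window is one of those printed above, with 2 CHR motifs. Cks2, the small subunit that binds Cdks, was at 11.17, 9.97, 10.60 and 9.49 TPM in control and at 38.07, 36.52, 25.73 and 42.57 TPM in bleomycin lungs. Values of 28.66, 41.85, 24.76 and 30.52 TPM were found in Ad-GFP and 36.00, 35.70, 30.79 and 35.39 TPM in Ad-ATP12A lungs. Control values lay within 2 TPM of each other and far below the exposed ones, and its log2 difference was 1.68 ± 0.148 (SE, n = 4 and 4, adjusted p 4.8e-05). Ccnb1 differed by 2.19, Ccnb2 by 2.17 and Ccna2 by 2.15.

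Kinases of mitotic entry and the spindle rose as well, with all 5 called, and so did their partner Birc5. Aurka, the centrosomal Aurora kinase, measured 1.97, 2.11, 1.52 and 1.47 TPM in control and 10.15, 10.56, 5.17 and 10.23 TPM in bleomycin lungs. Ad-GFP libraries measured 5.27, 9.85, 6.18 and 6.41 TPM and Ad-ATP12A libraries 10.26, 7.91, 9.53 and 10.39 TPM. Bleomycin b2r1 and Ad-GFP b1r1 were the lowest exposed libraries and above every control library, and the log2 difference came to 1.82 ± 0.199 (SE, n = 4 and 4, adjusted p 0.000131). Melk, a kinase that is abundant in mitosis, had levels of 1.06, 1.34, 0.86 and 0.51 TPM in control and 5.72, 5.70, 3.20 and 6.99 TPM in bleomycin lungs. Ad-GFP values were 3.54, 5.50, 3.60 and 4.19 TPM and Ad-ATP12A values 5.90, 5.02, 7.36 and 6.20 TPM. Control libraries lay between 0.51 and 1.34 TPM and exposed ones above 3 TPM, and the fitted log2 difference was 1.70 ± 0.201 (SE, n = 4 and 4, adjusted p 0.000217). Birc5 (survivin), which with Aurkb forms the chromosomal passenger complex, rose by 2.27, Aurkb by 1.81 and Plk1 by 1.80.

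The centrosomal kinase Nek2 and the kinesin Kif15 followed another order, and they were singled out after their values were seen. Nek2 was at 6.71, 6.17, 6.11 and 7.53 TPM in control and at 12.26, 12.60, 10.61 and 13.10 TPM in bleomycin lungs. Values of 16.04, 12.56, 10.03 and 14.21 TPM were found in Ad-GFP and 19.63, 15.86, 14.27 and 12.56 TPM in Ad-ATP12A lungs. Its highest libraries were Ad-ATP12A b1r1 and Ad-GFP b1r1, where most mitotic genes were not at their highest, and its difference of 0.78 was the smallest among the mitotic genes. Kif15, a motor that holds the spindle apart, measured 4.92, 3.17, 2.71 and 2.51 TPM in control and 7.74, 8.14, 5.36 and 6.58 TPM in bleomycin lungs. Ad-GFP libraries measured 8.43, 7.55, 4.56 and 6.35 TPM and Ad-ATP12A libraries 9.54, 12.14, 4.73 and 5.81 TPM. The Ad-ATP12A libraries of batch 1 were highest, and both Ad-GFP b2r1 and Ad-ATP12A b2r1 lay below control b1r1. The difference between bleomycin and control was 0.90.

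The spindle checkpoint, which delays anaphase until chromosomes are attached, rose in 3 of 3 genes. Ttk, the kinase that starts the checkpoint signal, had levels of 0.64, 0.54, 0.88 and 0.23 TPM in control and 3.75, 3.58, 1.66 and 5.47 TPM in bleomycin lungs. Ad-GFP values were 2.38, 3.87, 2.32 and 2.23 TPM and Ad-ATP12A values 3.36, 2.47, 3.39 and 4.09 TPM. It was under 1 TPM in all control libraries and above it in all exposed ones, and its log2 difference was 1.5 ± 0.244 (SE, n = 4 and 4, adjusted p 0.00155). Bub1 was at 3.13, 2.97, 1.48 and 1.37 TPM in control and at 5.39, 6.12, 3.69 and 8.95 TPM in bleomycin lungs. Values of 4.06, 5.91, 4.26 and 4.66 TPM were found in Ad-GFP and 5.71, 5.34, 6.32 and 5.72 TPM in Ad-ATP12A lungs. Control b1r1 and b1r2 were higher than the batch 2 controls, and the log2 difference came to 1.12 ± 0.22 (SE, n = 4 and 4, adjusted p 0.00461). Bub1b (BubR1) rose by 0.99 with overlapping ranges (adjusted p 0.0364). Leaving out any 1 of bleomycin b1r1, b1r2 and b2r2 or control b1r2, b2r1 and b2r2 ended that call (adjusted p 0.0722 to 0.114), and without the 3 libraries low in Scgb1a1 it did not pass (0.79, adjusted p 0.163). Nor did Bub1b pass without the batch term (adjusted p 0.0568), without the filter (0.0809) or in the 8 libraries compared (0.0547).

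The anaphase-promoting complex marks cyclins and securin for destruction, and the genes grouped with it in the list rose, 3 of 3. Cdc20, the activator, measured 4.56, 4.69, 5.15 and 3.79 TPM in control and 18.06, 19.64, 14.40 and 26.14 TPM in bleomycin lungs. Ad-GFP libraries measured 13.82, 19.64, 14.68 and 11.46 TPM and Ad-ATP12A libraries 19.62, 17.87, 20.01 and 19.31 TPM. The exposed libraries started at 11.46 TPM and the controls ended at 5.15 TPM, and the fitted log2 difference was 1.87 ± 0.17 (SE, n = 4 and 4, adjusted p 6.43e-05). Pimreg, a protein of proliferating cells, had levels of 1.39, 1.73, 1.12 and 0.87 TPM in control and 13.51, 12.24, 7.41 and 17.75 TPM in bleomycin lungs. Ad-GFP values were 7.12, 13.23, 8.28 and 6.06 TPM and Ad-ATP12A values 8.68, 12.05, 8.43 and 11.74 TPM. The bleomycin libraries spanned 7.41 to 17.75 TPM with controls below 2 TPM, and its log2 difference was 2.55 ± 0.237 (SE, n = 4 and 4, adjusted p 6.43e-05). Ube2c, the ubiquitin-conjugating enzyme of the complex, rose by 2.05.

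Kinetochores link chromosomes to microtubules, and both kinetochore genes rose. Cenpf was at 0.98, 1.38, 0.63 and 0.70 TPM in control and at 4.60, 5.65, 6.45 and 7.21 TPM in bleomycin lungs. Values of 4.94, 7.76, 4.61 and 3.03 TPM were found in Ad-GFP and 7.75, 3.74, 5.85 and 2.97 TPM in Ad-ATP12A lungs. The lowest exposed libraries were Ad-ATP12A b2r2 and Ad-GFP b2r2, still above the highest control, and the log2 difference came to 1.86 ± 0.252 (SE, n = 4 and 4, adjusted p 0.000457). The kinetochore motor Cenpe rose by 1.52.

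Genes of the spindle rose in 8 of 8 cases and held the gene with the smallest p of the 51. Psrc1, a microtubule-binding protein first described as a p53 target, measured 4.33, 2.10, 2.96 and 2.77 TPM in control and 37.75, 41.18, 17.41 and 32.48 TPM in bleomycin lungs. Ad-GFP libraries measured 25.31, 34.16, 23.90 and 31.26 TPM and Ad-ATP12A libraries 41.32, 26.02, 26.95 and 22.49 TPM. Bleomycin b2r1 was the lowest exposed library and still far above the highest control of 4.33 TPM, and the fitted log2 difference was 3.0 ± 0.229 (SE, n = 4 and 4, adjusted p 3.42e-05). Ckap2, a microtubule-associated protein, had levels of 2.05, 2.48, 2.53 and 1.95 TPM in control and 16.77, 15.87, 9.48 and 19.10 TPM in bleomycin lungs. Ad-GFP values were 13.52, 19.58, 11.08 and 9.09 TPM and Ad-ATP12A values 13.38, 15.90, 14.87 and 13.05 TPM. Controls lay between 1.95 and 2.53 TPM and exposed libraries above 9 TPM, and its log2 difference was 2.29 ± 0.198 (SE, n = 4 and 4, adjusted p 4.8e-05). Tpx2, the activator of Aurora A, differed by 2.13, Kif20a by 1.82, Hmmr by 1.73, Nusap1 by 1.69 and the motor Kif11 by 1.55.

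Cytokinesis genes, which build the midzone and the cleavage furrow, rose in 5 of 5 cases. Kif23, the motor of the centralspindlin complex, was at 6.70, 5.49, 5.49 and 5.50 TPM in control and at 25.36, 23.23, 17.44 and 28.80 TPM in bleomycin lungs. Values of 18.60, 20.88, 15.59 and 12.25 TPM were found in Ad-GFP and 29.64, 22.44, 19.93 and 16.24 TPM in Ad-ATP12A lungs. Ad-GFP b2r2 was the lowest exposed library, above every control, and the log2 difference came to 1.84 ± 0.16 (SE, n = 4 and 4, adjusted p 4.8e-05). Prc1, which bundles midzone microtubules, measured 5.08, 6.48, 5.60 and 3.52 TPM in control and 22.97, 26.40, 15.92 and 33.61 TPM in bleomycin lungs. Ad-GFP libraries measured 17.17, 25.20, 21.95 and 16.22 TPM and Ad-ATP12A libraries 22.66, 23.79, 27.94 and 28.38 TPM. Control b2r2 was lowest and bleomycin b2r2 highest, with no overlap, and the fitted log2 difference was 2.04 ± 0.213 (SE, n = 4 and 4, adjusted p 0.000113). Anln differed by 1.73, Racgap1 by 1.56 and Ect2 by 1.49.

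Top2a, the topoisomerase that untangles chromosomes, and Mki67, the source of the Ki-67 antigen used to count cycling cells, both rose. Top2a had levels of 8.19, 9.07, 9.78 and 6.01 TPM in control and 40.16, 43.83, 26.69 and 56.30 TPM in bleomycin lungs. Ad-GFP values were 31.00, 43.40, 34.24 and 25.18 TPM and Ad-ATP12A values 41.39, 40.27, 37.64 and 43.26 TPM. The exposed libraries started at 25.18 TPM and the controls ended at 9.78 TPM, and its log2 difference was 2.18 ± 0.201 (SE, n = 4 and 4, adjusted p 6.43e-05). Mki67 was at 4.80, 4.46, 4.34 and 3.05 TPM in control and at 18.41, 18.19, 15.06 and 31.51 TPM in bleomycin lungs. Values of 12.85, 19.74, 19.63 and 17.84 TPM were found in Ad-GFP and 18.30, 17.33, 25.40 and 19.98 TPM in Ad-ATP12A lungs. Bleomycin b2r2 was the highest of the 16 libraries and Ad-GFP b1r1 the lowest exposed one, and the log2 difference came to 2.04 ± 0.206 (SE, n = 4 and 4, adjusted p 0.000105). Under exact permutation of the group labels (two-sided, 70 relabellings), Mki67 differed from control with p 0.0286 in each exposed group, the smallest value that 4 against 4 libraries allow.

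**Figure D3:**
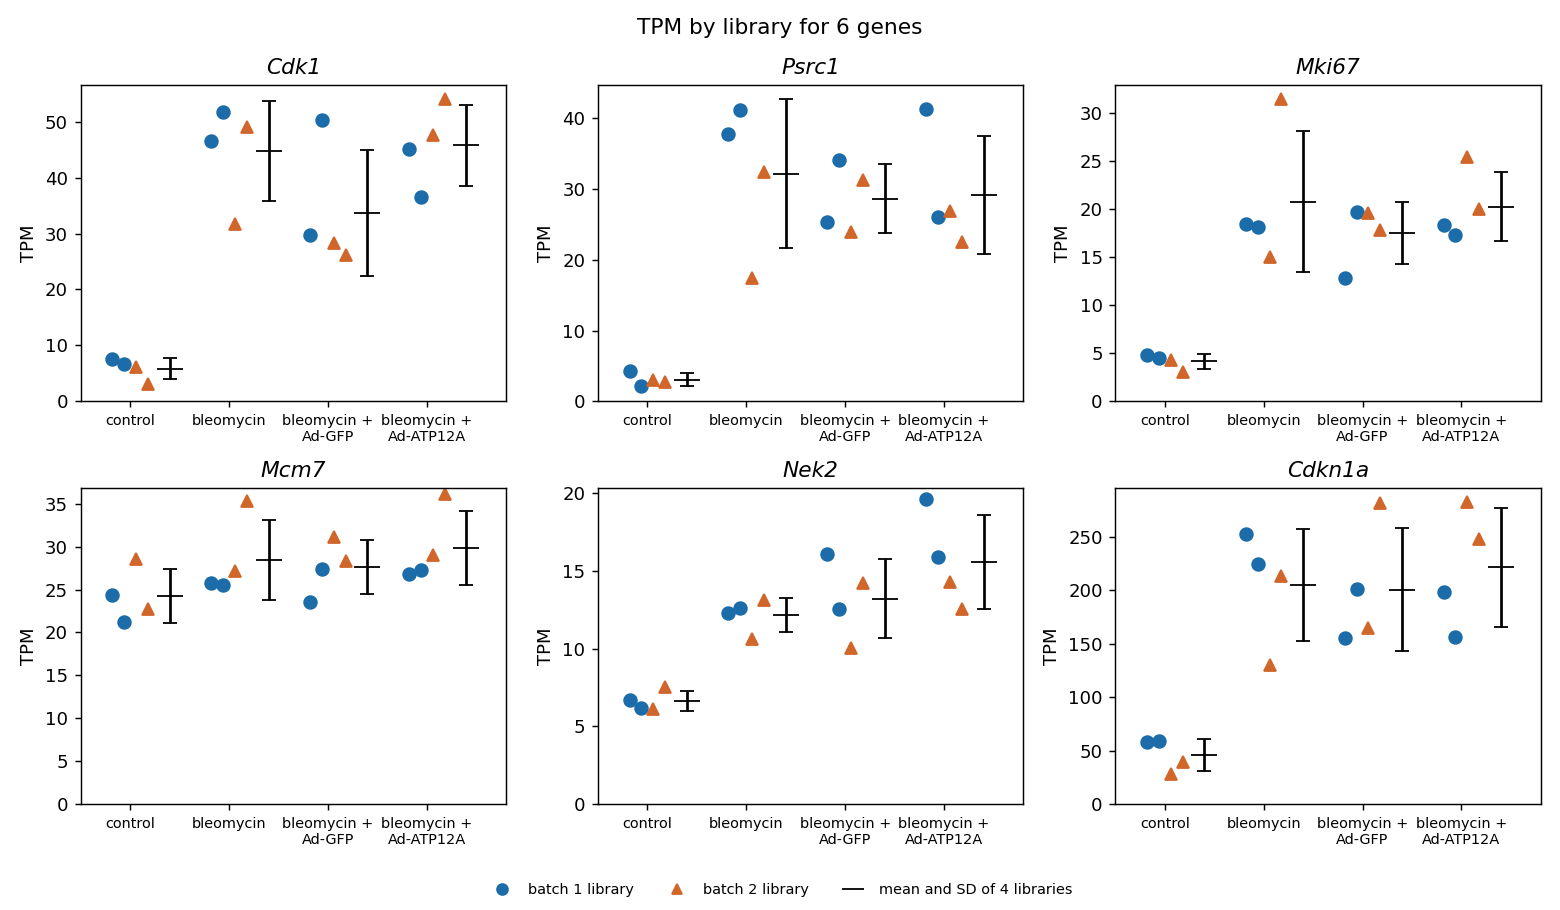
TPM of Cdk1, Psrc1, Mki67, Mcm7, Nek2 and the Cdk inhibitor gene Cdkn1a, 1 point per library by group, with circles for batch 1 and triangles for batch 2, and the mean and SD of 4 libraries beside each group; the vertical axes differ. For Mcm7 the groups overlap, and for the other 5 genes the control libraries lie below all exposed libraries.

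The highest library varied from gene to gene, and 7 of the 12 exposed libraries were highest for at least 1 gene. Bleomycin b2r2 was the highest of 16 in 22 of the 51 genes, Ad-ATP12A b2r2 in 9 and Ad-GFP b1r2 in 7, and control b2r2 was the lowest in 32. Among the 12 exposed libraries bleomycin b2r1 was lowest in 18 genes, Ad-GFP b1r1 in 16 and Ad-GFP b2r2 in 13, while Ad-ATP12A b2r2, highest in 9, was lowest of them in 2. In the bleomycin group the library with the highest values, b2r2, is also one of those low in Scgb1a1, and the library with the lowest, b2r1, is one of those high in Xist. The part of these features in the result was not tested. Leaving out the 3 libraries low in Scgb1a1 gave 48 of 51 genes called higher in bleomycin lungs, with Cdt1 and Bub1b no longer called. The share of all genes called in that fit is not given here.

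**Figure D4:**
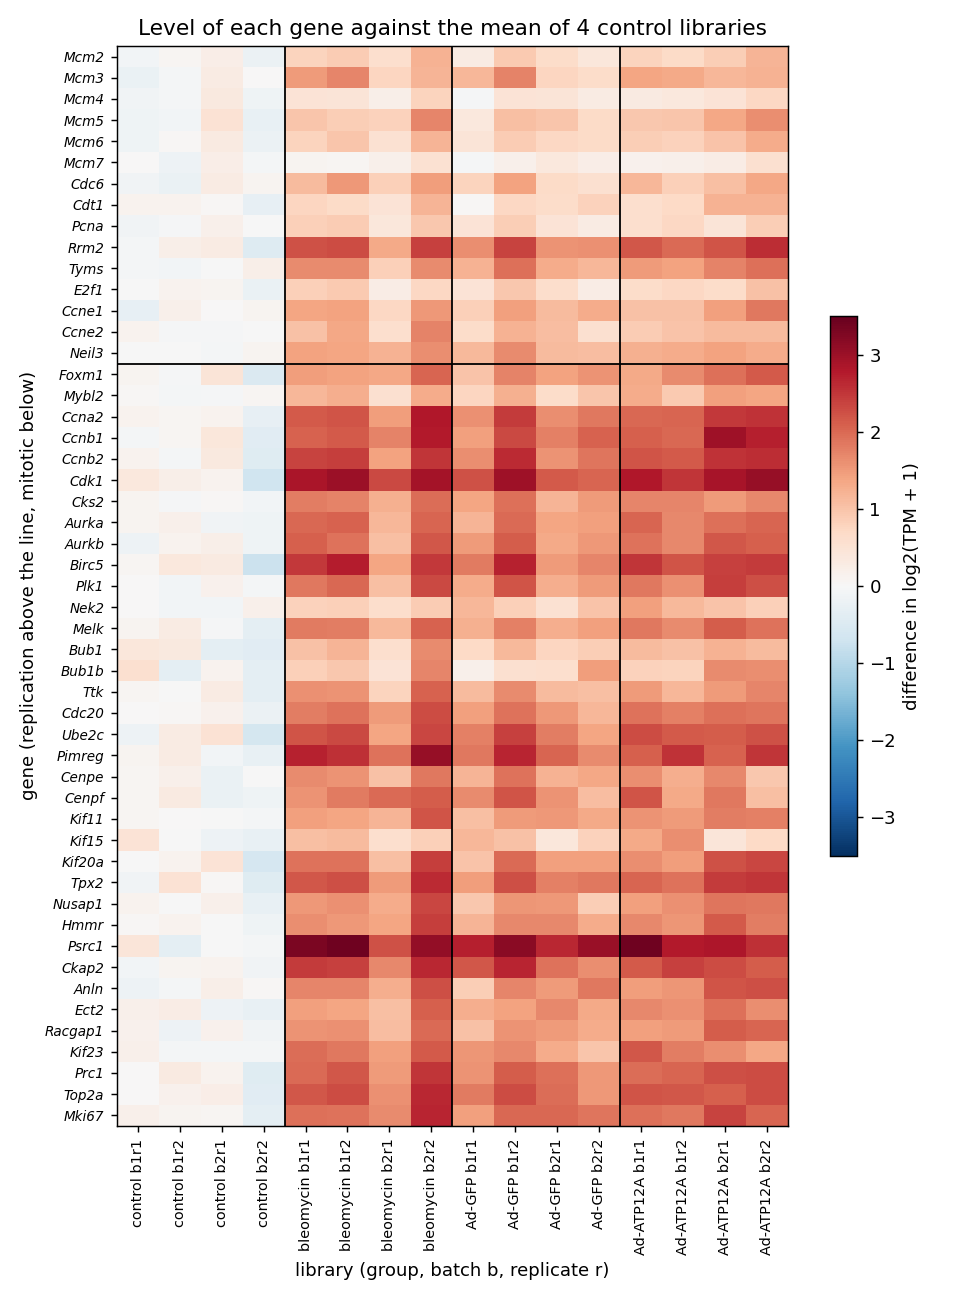
Each gene's log2(TPM + 1) minus its mean over the 4 control libraries (colour scale, red higher), with genes in rows, replication genes above the horizontal line and mitotic genes below, and the 16 libraries in columns by group, batch (b) and replicate (r). The 12 exposed columns are red in nearly every row; Mcm4 and Mcm7 are palest, and Cdk1 and Psrc1 darkest.

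Ad-GFP lungs, which received bleomycin and a control virus, also had higher levels of most of these genes than control lungs. Of the 51 genes 47 rose and 0 fell, 35 of 36 mitotic and 12 of 15 replication genes, against 9.16% of all genes called higher and 4.52% called lower. The median log2 difference was 1.5 for mitotic and 0.77 for replication genes, against 0.03 for all genes tested. In 45 genes the 2 groups did not overlap, all with Ad-GFP higher, against 10.8% of all genes (4.49% lay below). Those that did not pass were Mcm4 at 0.29 (adjusted p 0.216), Mcm7 at 0.18 (0.267), Cdt1 at 0.56 (0.0766) and Bub1b at 0.70 (0.139), in the same limma fit. The largest differences were 2.89 for Psrc1 (adjusted p 8.34e-05) and 2.34 for Cdk1 (0.000118). The count of genes called went down to 39 without Ad-GFP b1r2, the group's highest library, where Mcm2, Mcm5, Mcm6, Cdc6, Pcna, E2f1, Ccne2 and Bub1 no longer passed. Apart from Mcm6, each of these also lost its call without at least 1 other library, Mcm2 most often, and Cdt1 passed without Ad-GFP b1r1 (0.71, adjusted p 0.0351). The count of genes called was 2 in batch 2 alone, where 68 of 17003 genes passed.

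Ad-ATP12A lungs differed from control in 50 of the 51 genes, all of them higher, with 36 of 36 mitotic and 14 of 15 replication genes called. Among all genes tested, 13.3% were called higher. The median log2 difference was 1.88 for mitotic and 1.03 for replication genes, against 0 for all genes tested, and 48 genes did not overlap, against 14% of all genes. Psrc1 differed by 2.89, Cdk1 by 2.81, Ccnb1 by 2.45, Birc5 by 2.38 and Rrm2 by 2.23. Mcm4 differed by 0.48, a call that was lost without any 1 of the 4 Ad-ATP12A libraries or control b1r1, b1r2 and b2r2 (adjusted p 0.0536 to 0.111). That call was also lost without the batch term (adjusted p 0.0542) and without the filter (0.0699). In batch 2 alone 41 of the 51 genes still passed. The share of all genes passing there is not given, so that count is not set against those of the other comparisons. Without the 3 libraries low in Scgb1a1 none of the 50 lost its call, and Mcm7 passed as well. These 3 comparisons share the control libraries, so their values are given side by side and no likeness between them is drawn. In 45 of the 51 genes every control library lay below all 12 exposed libraries. That count was taken for the 51 genes only, so no share over all genes stands beside it.

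Among the exposed groups, which differ in the virus, no difference passed the test. In Ad-ATP12A against Ad-GFP, 0 of the 51 genes were called, against 0.00588% of all genes, and 5 were higher at an unadjusted p below 0.05, as were 1.16% of all genes. The median log2 difference was 0.32, against -0.01 for all genes, and 48 of 51 were positive. No gene had groups that did not overlap, against 0.312% of all genes with Ad-ATP12A above Ad-GFP. The genes with the smallest p were Melk at 0.46 (p 0.0392), Kif23 at 0.36 (p 0.0393) and Nusap1 at 0.48 (p 0.0463), each with a limma adjusted p of 0.999. The positive median was uneven between batches, 0.12 in batch 1 and 0.51 in batch 2. Atp12a was also higher in the Ad-ATP12A libraries of batch 2 (29.02 and 25.70 TPM) than in those of batch 1 (5.13 and 2.96 TPM), and the T cell markers summed to between 117.3 and 133.2 TPM in Ad-ATP12A and between 49.24 and 131.5 TPM in Ad-GFP lungs. The part of either in these differences was not tested.

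Ad-GFP against bleomycin alone gave a median of -0.24, with -0.03 for all genes, and 0 of 51 genes called, against 0.0118% of all genes. The smallest p values belonged to Kif23 at -0.47 (p 0.0104), Nusap1 at -0.48 (p 0.0457) and Cdc20 at -0.37 (p 0.0502), with a limma adjusted p of 1 for each, and 2 genes were lower at an unadjusted p below 0.05, as were 1.02% of all genes. In none of the 51 did the groups stand apart, against 0.276% of all genes above and 0.529% below. Ad-ATP12A against bleomycin alone gave a median of 0.09, with -0.04 for all genes, and 0 of 51 genes called, against 0.0235% of all genes (0.0176% higher). There 1 gene, Nek2 at 0.32, was higher at an unadjusted p below 0.05 (p 0.0372, limma adjusted p of 1), against 1.31% of all genes. These tests had 4 libraries a side, and a p that misses the threshold does not show that the groups were alike.

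Other genes of the cell cycle, 142 on a separate list grouped by role, showed where the pattern extended beyond the 51. In bleomycin against control lungs 81 rose and 2 fell, with a median log2 difference of 0.59, against 13.2% of all genes called higher and 5.61% lower. Kinetochore and checkpoint genes rose in 16 of 19 cases, among them Spc25 by 2.04 and Ndc80 by 1.75, both parts of the complex that grips microtubules. Kinesin and spindle genes rose in 20 of 24 cases, among them Kif22 by 1.89 and Iqgap3 by 1.76. Of 38 genes of origins and forks 23 rose, such as Tk1, the salvage thymidine kinase, by 1.40 and Dbf4, the partner of Cdc7, by 1.11. Of 8 G1 cyclin and kinase genes 5 rose, Cks1b by 1.63 and Cdk2 by 0.57 among them.

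Fewer genes passed in other roles. Of 16 condensin and cohesin genes 7 rose, including Cdca5 (sororin) by 1.58 and Ncapg by 1.74, and 1 fell. The one that fell was Pttg1, securin, which holds separase inactive until anaphase. It measured 85.86, 83.44, 95.32 and 95.66 TPM in control and 68.23, 67.36, 64.89 and 54.60 TPM in bleomycin lungs. The exposed libraries of the bleomycin group lay below all controls and the log2 difference was -0.49 (adjusted p 0.0425), a call that was lost without any 1 of control b2r1, control b2r2, bleomycin b1r1, bleomycin b1r2, bleomycin b2r2 or Ad-ATP12A b1r1 (adjusted p 0.0507 to 0.108). It was also lost without the 3 libraries low in Scgb1a1 (-0.39, adjusted p 0.153), without the batch term (0.0873) and with a replicate block (0.0625). Of 15 genes of the RB, E2F and DREAM group 5 rose, such as the repressors E2f8 by 1.37 and E2f7 by 1.00. Of 15 genes of the anaphase-promoting complex 3 rose, including Fbxo5 (Emi1), its inhibitor, by 1.05 and Ube2s by 0.66, a share near that of all genes.

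Cdk inhibitors, the brakes of the cycle, did not move as a group. In bleomycin lungs 2 of 7 were called higher and 1 lower, against 13.2% and 5.61% of all genes. Cdkn1a (p21), a p53 target that binds Cdks, had levels of 57.91, 59.18, 28.38 and 39.32 TPM in control and 252.59, 224.49, 129.91 and 213.22 TPM in bleomycin lungs. Ad-GFP libraries measured 155.28, 201.44, 164.61 and 282.02 TPM and Ad-ATP12A libraries 198.25, 156.42, 283.16 and 248.50 TPM. No exposed library was below 129.91 TPM and no control above 59.18 TPM, and the fitted log2 difference was 2.14 ± 0.279 (SE, n = 4 and 4, adjusted p 0.000353). Cdkn1b (p27), an inhibitor of resting cells, was at 66.16, 69.64, 83.23 and 68.86 TPM in control and at 37.32, 43.61, 58.35 and 52.62 TPM in bleomycin lungs. All bleomycin libraries were below all controls, and Cdkn1b fell by 0.59 on the log2 scale (adjusted p 0.0238). Cdkn2a, the p16 and p19Arf locus, measured 1.79, 1.45, 2.23 and 2.35 TPM in control and 9.08, 8.47, 2.65 and 5.92 TPM in bleomycin lungs. Bleomycin b2r1 was close to the highest control, and Cdkn2a rose by 1.26 (adjusted p 0.0299).

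The Cdkn1b call was lost without control b1r2, control b2r1, bleomycin b1r1 or bleomycin b1r2 (adjusted p 0.0596 to 0.0885), and the Cdkn2a call without control b1r1, control b1r2, bleomycin b1r1, bleomycin b1r2 or bleomycin b2r2 (0.07 to 0.102). Without the 3 libraries low in Scgb1a1 neither passed (Cdkn1b adjusted p 0.106, Cdkn2a 0.0902). The remaining inhibitors did not pass: Cdkn2b and Cdkn2d each differed by 0.37, Cdkn2c by -0.08 and Cdkn1c by -0.12. Cdkn2d did pass without bleomycin b2r1 (0.54, adjusted p 0.00409), with array weights, which give less reliable libraries less weight (0.51, adjusted p 0.00206), and in batch 1 alone (0.58, adjusted p 0.0218). In Ad-GFP against control 68 of the 142 genes rose and 2 fell, against 9.16% and 4.52% of all genes. In Ad-ATP12A against control 85 rose and 4 fell, against 13.3% and 9.49%. Between exposed groups 0 of the 142 were called.

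**Figure D5:**
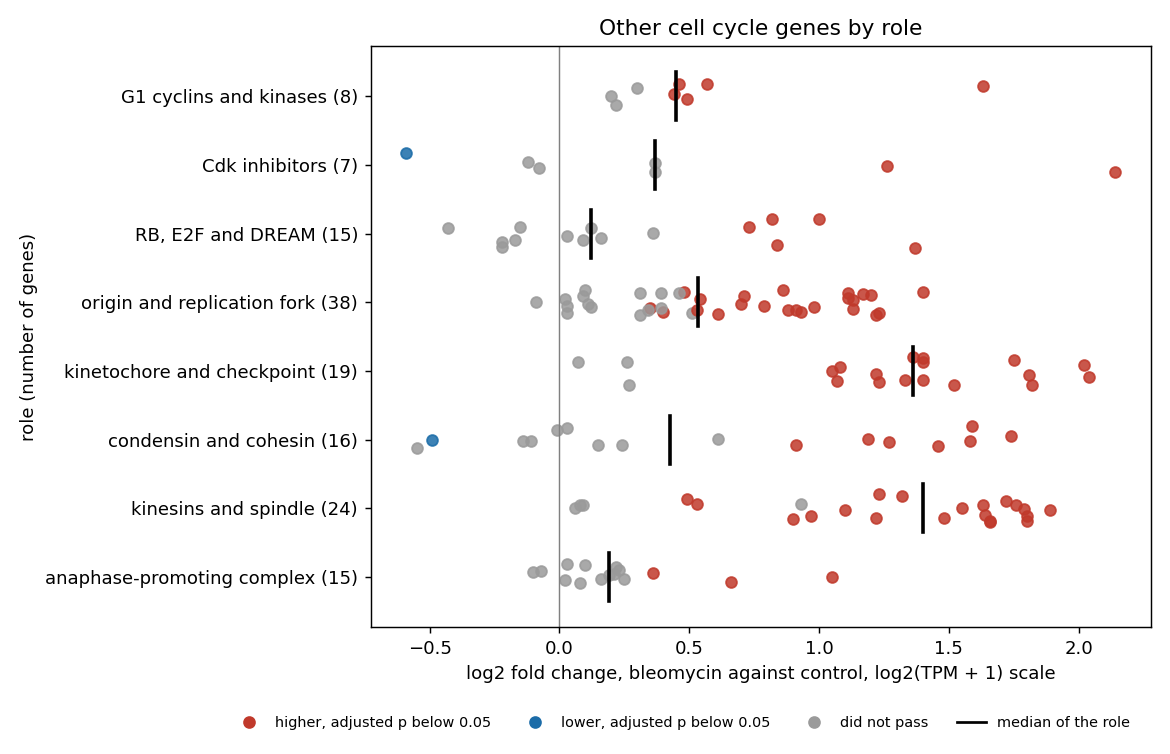
Log2 fold change in bleomycin against control lungs for the 142 other cell cycle genes, 1 point per gene, by role, with red for genes called higher, blue for genes called lower, grey for genes that did not pass and a black line at each role's median. Kinetochore and spindle genes lie mostly above 1, while most genes of the anaphase-promoting complex and of the RB, E2F and DREAM group lie near 0.

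Markers of other cell types differed between some of the groups, in patterns of their own. Macrophage and monocyte markers (7 genes, none at 0 in all libraries) summed to between 198.4 and 296.1 TPM in control and between 353.1 and 672.2 TPM in bleomycin lungs. Of these markers 2 of 7 were called higher in bleomycin lungs, against 13.2% of all genes tested. Positive differences were found for 6 of the 7, and the lowest difference was -0.57. The sum of the 7 in Ad-GFP lungs, 235.2 to 748.5 TPM, overlapped control, and in Ad-ATP12A lungs it was 311.2 to 790.4 TPM. Alveolar macrophage markers (5 genes) summed to 340.7 to 1065 TPM in control and 469.8 to 765.8 TPM in bleomycin lungs. Those ranges overlapped, and 0 of 5 were called. Fibroblast markers (6 genes) summed to 500.6 to 618.1 TPM in control, 1147 to 1885 TPM in bleomycin, 808.5 to 2202 TPM in Ad-GFP and 856.7 to 2917 TPM in Ad-ATP12A lungs. That sum was carried by the collagen genes Col1a1 (3.48) and Col3a1 (3.02), the 2 of 6 called higher in bleomycin lungs, while Tcf21 (-1.12, adjusted p 0.0881) and Pdgfra (-0.60, adjusted p 0.206) did not pass, with all bleomycin libraries below all controls. T cell markers (7 genes) in control and bleomycin lungs overlapped, at 58.01 to 74.49 and 59.4 to 135.8 TPM, with 0 of 7 called. In Ad-ATP12A against control 6 of 7 were called higher, against 13.3% of all genes tested.

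Endothelial markers (6 genes) summed to 1592 to 2102 TPM in control, 1006 to 1501 TPM in bleomycin, 964.6 to 1718 TPM in Ad-GFP and 784.5 to 1306 TPM in Ad-ATP12A lungs. Against control, 1 of 6 was called lower in bleomycin, 1 of 6 in Ad-GFP and 5 of 6 in Ad-ATP12A lungs. Among all genes tested, 5.61%, 4.52% and 9.49% were called lower. Red blood cell markers, the globin genes, were called lower in bleomycin lungs in 4 of 4 cases, against 5.61% of all genes. Their median log2 difference was -1.98. Against control, 1 of 4 was called lower in Ad-GFP lungs (median -1.06) and 1 of 4 in Ad-ATP12A lungs (median -0.93). Among all genes tested, 4.52% and 9.49% were called lower there, and all 4 globin genes overlapped control in both groups. The part of these cell types in the result was not tested.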

How the data were processed

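RNA was sequenced from 16 mouse lung libraries, 4 groups of 4 in 2 batches, from 0.6 ug of total RNA taken with a column kit, per the labels' protocols. The deposited table holds log2 values made by the authors, log2 of TPM plus 1, for 53647 genes; columns turned back to TPM summed to between 999999.12 and 1000000.8. Reads were processed with STAR and RSEM on GRCm39 (mm39), per the submitters' processing notes; annotation, strand setting and versions are not given in the sources used here. Library depth is unknown, because TPM carries no read counts, and no count model was fitted.

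Groups, batches and replicate numbers came from the sample titles, and 52093 identifiers received a symbol from GENCODE M21. A gene entered when 4 or more libraries held 1 TPM or more (17003 genes). limma 3.58.1 in R 4.3.3, with a trended prior variance, took the 16 libraries together, with a mean for each of 4 groups and a term for batch; its two-sided p-values were adjusted over all genes by Benjamini-Hochberg and called below 0.05. An interaction fit used 8 group-by-batch means. The code was tested on simulated data. Python 3.11.15 with matplotlib 3.10.9 drew the figures.

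The members, the list of other cell cycle genes and the alternatives were chosen with earlier results of these data known. Genes named with every value had the smallest p in bleomycin against control, 2 per role of 3 or more genes and otherwise 1, plus those that did not pass there; Mki67, Nek2 and Kif15 were added. For other cell cycle genes, 2 per role, every Cdk inhibitor and those that fell were named. Same-numbered libraries were compared over their deviations from group means, and in 12 pairs the correlation ran from -0.158 to 0.212 with 1 above 0.1, so numbers were not treated as pairs. Promoters were read from RefSeq windows on GRCm38.p6, and no coordinates are given for the table's own build.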

Additional observations from a re-analysis of the deposited data

Results flagged for a closer look

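Within each group of 4 libraries, a gene's highest or lowest value was set apart when its gap to the nearest other value, divided by the group's whole range, passed Dixon's 95% limit. Of 204 sets of gene and group, 17 passed, and chance sets apart about 1 in 20 groups. The values below carry no explanation.

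Among the replication genes, Mcm4 was high in control b2r1 (18.93 TPM), Mcm5 and Mcm7 in bleomycin b2r2 (26.53 and 35.31 TPM), and E2f1 in Ad-ATP12A b2r2 (11.51 TPM). Ad-GFP b1r2 was high for Rrm2 (28.43 TPM), Tyms (35.18 TPM) and Neil3 (5.42 TPM). Tyms was low in bleomycin b2r1, at 15.71 TPM.

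Among the mitotic genes, bleomycin b2r2 was high for Foxm1 (14.49 TPM) and Hmmr (9.49 TPM), and bleomycin b2r1 was low for Ccnb2 (9.06 TPM) and Aurka (5.17 TPM). Ad-GFP b1r2 was high for Cdk1 (50.33 TPM) and Ttk (3.87 TPM). Ccna2 was low in control b2r2 (2.93 TPM), Cks2 was low in Ad-ATP12A b2r1 (30.79 TPM), and Kif23 was high in control b1r1 (6.70 TPM).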

How the results depend on the processing

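The number of the 51 genes called was recomputed with a pseudocount of 0.1 TPM, without the filter, with a minimum mean of 5 TPM, without the batch term, with array weights, with quantile or median-ratio normalization, in the 8 libraries of a comparison, in each batch alone, without the 3 libraries low in Scgb1a1 and without each library in turn. In batch 2 alone, 2 genes were called in bleomycin and 2 in Ad-GFP against control. Batch 1 alone, with 8 libraries as in batch 2, gave 47 in bleomycin against control, and the reason for the lower counts was not tested. All other settings stayed within 1.5 times the 50, 47 and 50 genes called against control, and 0 genes were called between exposed groups in every setting. Leaving out 1 library gave 47 to 50 genes for bleomycin, 39 to 48 for Ad-GFP and 49 to 50 for Ad-ATP12A. With a replicate block the counts were 49, 46 and 49, with Mcm4 (bleomycin and Ad-ATP12A) and Mcm2 (Ad-GFP) lost and no pairing shown by the numbers. With the mean of 5 TPM, 10 low genes were not tested. The counts in this paragraph are given without the share of all genes called in the same setting.

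Named genes whose calls depended on 1 library are given with their values in the text. Among uncalled genes Cdkn1c changed sign, to 0.05 with array weights, 0.06 without the 3 libraries, 0.35 in batch 1 alone, and between -0.37 and 0.02 without 1 library (0.02 without bleomycin b2r1 or b2r2), and Cdkn2c to 0.07 in batch 2 alone. The unknown depth limits genes near 1 TPM, such as Ttk and Cdc6 in control lungs.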

Other observations

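Orc6, a subunit of the origin recognition complex and one of the 142 other cell cycle genes, differed by batch in its distance from control. The interaction of group and batch had a limma adjusted p of 0.0461 in Ad-GFP and 0.0491 in Ad-ATP12A lungs, where 2.36% and 2.8% of all genes had such a difference, and Orc6 was singled out after its values were seen. In Ad-ATP12A against control lungs, Lin52, a subunit of the MuvB complex, fell by 0.62 on the log2 scale (adjusted p 0.0126), and Stag2, a cohesin subunit, fell by 0.69 (adjusted p 0.0308), in limma with Benjamini-Hochberg adjustment. Cdkn1b fell there by 0.63 (adjusted p 0.015) and Pttg1 by 0.54 (adjusted p 0.0258), so 4 of the 142 genes were lower in that comparison, against 9.49% of all genes. Without the 3 libraries low in Scgb1a1 none of the 4 passed (adjusted p 0.0561 to 0.0651). Stag2 did not pass without the filter (adjusted p 0.0674), without the batch term (0.0625) or in batch 2 alone (0.0959). Pttg1 did not pass without the filter (0.0543), without the batch term (0.0558), with array weights (0.0549) or in the 8 libraries compared (0.058). In batch 1 alone Pttg1 (-0.12, adjusted p 0.655), Lin52 (-0.36, 0.271) and Cdkn1b (-0.4, 0.215) did not pass. Single libraries also decided calls: Stag2 lost its call without control b1r1 or b1r2 or Ad-ATP12A b1r1, b2r1 or b2r2 (0.0647 to 0.0992), Pttg1 without control b2r1 or b2r2 or Ad-ATP12A b2r1 or b2r2 (0.0629 to 0.0862), and Cdkn1b without Ad-ATP12A b2r1 or b2r2 (0.0554 and 0.0516).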
